A study of Mus musculus with 16 samples.

Results

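The 37 genes described here serve protein folding in the endoplasmic reticulum (ER) and the unfolded protein response, and they were followed through injury of the mouse intervertebral disc. The 37 members were found by gene name among the 49315 genes of the table, each in 1 row. Finding them by name used no measured value, but the list was chosen with earlier results of these data known. Comparisons of the members with all genes are therefore descriptive. All 37 passed the filter on low values, which 24188 genes passed. They comprise 11 ER chaperones and co-chaperones, 4 protein disulfide isomerases, 5 genes of translocation, export and collagen folding, 5 stress sensors and transcription factors, 7 genes of ER-associated degradation and 5 targets of the PERK-ATF4 arm.

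Bulk RNA sequencing was done on tail discs of 16 mice, with the 4 coccygeal discs of a mouse pooled, so that each library was 1 animal. Mice labelled Adam8EQ, called mutants here, carried an allele of Adam8, a membrane-anchored metalloprotease, and were compared with wild-type mice. The series title names DBA, an inbred strain, as the comparison strain, and the background of the mutants, the ages, and the time between injury and collection are not given in the sources used here. The 4 groups were injured mutants (5 mice), intact mutants (4 mice), injured wild type (4 mice) and intact wild type (3 mice). Levels are in TPM, a unit that corrects reads for the length of a gene and the depth of a library, so they can be compared between genes. A change is a difference of group means of log2(TPM + 1), given with the ordinary standard error (SE) of limma's linear fit. The p-values are from limma's moderated test, which adjusts the spread of a gene by that of other genes. A gene was called where the Benjamini-Hochberg adjusted p over all 24188 genes was under 0.05.

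Secreted and membrane proteins are folded in the ER, and disc and cartilage cells, which secrete collagen and proteoglycan, depend on this machinery. When unfolded proteins build up, 3 sensors in the ER membrane respond: Ern1 (IRE1) splices Xbp1 mRNA, Atf6 is cleaved to a transcription factor, and Eif2ak3 (PERK) slows translation while favouring that of Atf4. Xbp1 and Atf6 activate chaperones and degradation genes, whereas Atf4 activates genes of amino acid supply and, with Ddit3 (CHOP), of cell death. Gene-level TPM shows neither Xbp1 splicing, nor Atf6 cleavage, nor phosphorylation, nor any protein level.

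A library held between 10220106 and 24881409 reads as implied by its TPM values (median 13315166), and the least covered member values rested on few reads (25 for Trib3, 27 for Derl3 and 28 for Chac1 in their lowest library). Of 8 markers of disc and cartilage cells 7 were at 1 TPM or more in every library, and Matn3, at 0.417 to 5.73 TPM, was not. Their summed level was 6171 to 18042 TPM in injured mutants against 29929 to 33674 in intact mutants, and 7465 to 24048 in injured wild type against 24694 to 30288 in intact wild type. The markers did not move together: Chad was at 1238 to 4596 TPM in injured and 17291 to 18411 TPM in intact mutants, and Comp was at 250.5 to 1324 and 3449 to 3849 TPM, whereas Hapln1 was at 986 to 2313 and 573 to 631 TPM and Sox9 at 376 to 972 and 353 to 554 TPM. The sum of 6 notochordal markers was 553 to 3345 TPM in injured and 3329 to 5502 TPM in intact mutants, and 1457 to 5263 TPM against 5868 to 6431 TPM in wild type. The sum of 5 endothelial markers was 9.38 to 61.7 TPM in injured and 2.12 to 8.69 TPM in intact mutants, and 6.22 to 173 TPM against 3.80 to 15.4 TPM in wild type. All 7 macrophage markers were present in every group. Their sums were 737 to 7406 TPM in injured and 129 to 215 TPM in intact mutants. In wild type they were 223 to 3734 TPM in injured and 141 to 169 TPM in intact mice. Lyz2 supplied most of the sum in injured mutants (414 to 5547 TPM). Csf1r alone overlapped between injured (40.1 to 142 TPM) and intact mutants (41.3 to 68.7 TPM). The sum of 8 neutrophil markers was 13.4 to 1005 TPM in injured mutants and 1.80 to 2.89 TPM in intact mutants. In wild type it was 4.23 to 185 TPM against 6.87 to 7.78 TPM. The neutrophil markers did not all rise. Elane was at 0 TPM in every injured mutant and 0 to 0.684 TPM in intact mutants. In wild type Elane was at 0 to 1.61 TPM in injured and 1.025 to 2.21 TPM in intact mice. Plasma cells are rich in many of the 37 members, and their markers did not move together. Jchain was at most 1.15 TPM and Mzb1 at most 1.77 TPM in every library. Prdm1 was at 0.514 to 8.68 TPM in injured and 0.295 to 0.451 TPM in intact mutants. In wild type Prdm1 was at 0.758 to 6.53 TPM in injured and 0.247 to 0.848 TPM in intact mice. Sdc1 was at 46.2 to 93.4 TPM in injured and 38.9 to 54.4 TPM in intact mutants, and Ighm at 1.30 to 11.7 and 3.29 to 5.48 TPM. The sum of all 11 plasma and B cell markers, of which Sdc1 supplied most, was 56.6 to 122 TPM in injured and 50.1 to 66.7 TPM in intact mutants, and 64.4 to 121 TPM against 49.02 to 58.4 TPM in wild type, where the groups did not overlap. Injured mutant mouse 2 stood apart, with the highest macrophage and neutrophil sums and the lowest disc sum of the 16 libraries. Fewer cells of a type and less RNA per cell cannot be told apart in bulk tissue, and the part of these cell markers in the results that follow was not tested.

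Many members were higher in injured than in intact discs of both genotypes, most of all Atf4, Edem1, Sec61b and Manf in mutants and Sec24d, Hyou1 and Sec61b in wild type. In mutants 16 of the 37 members were called (limma), 15 higher and 1 lower, or 43.2%, beside 30.8% of all genes tested. By direction the background was 13.1% of genes called higher and 17.7% called lower. The change was above 0 for 32 of the 37 members, and its median was 0.35 over the members and -0.08 over all genes tested. For 15 members every injured mutant lay above every intact mutant, beside 12% of all genes tested. In wild type 1 member was called (limma), Sec24d, beside 0.116% of all genes. An unadjusted p under 0.05 was found there for 18 of the 37 members, beside 4155 of the 24188 genes tested. Without injured wild-type mouse 1, 3 members were called there, beside 1.87% of all genes. Without injured wild-type mouse 2, 3 or 4, or any 1 of the intact wild-type mice, 0 were called, beside 0.00827% to 0.0496% of all genes. The wild-type change was above 0 for 33 members, its median was 0.35 over the members and 0.01 over all genes, and for 13 members every injured mouse lay above every intact mouse, beside 9.22% of all genes. The 2 sets of changes come from separate mice, and the similar medians do not show that the genotypes respond alike.

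**Figure D1:**
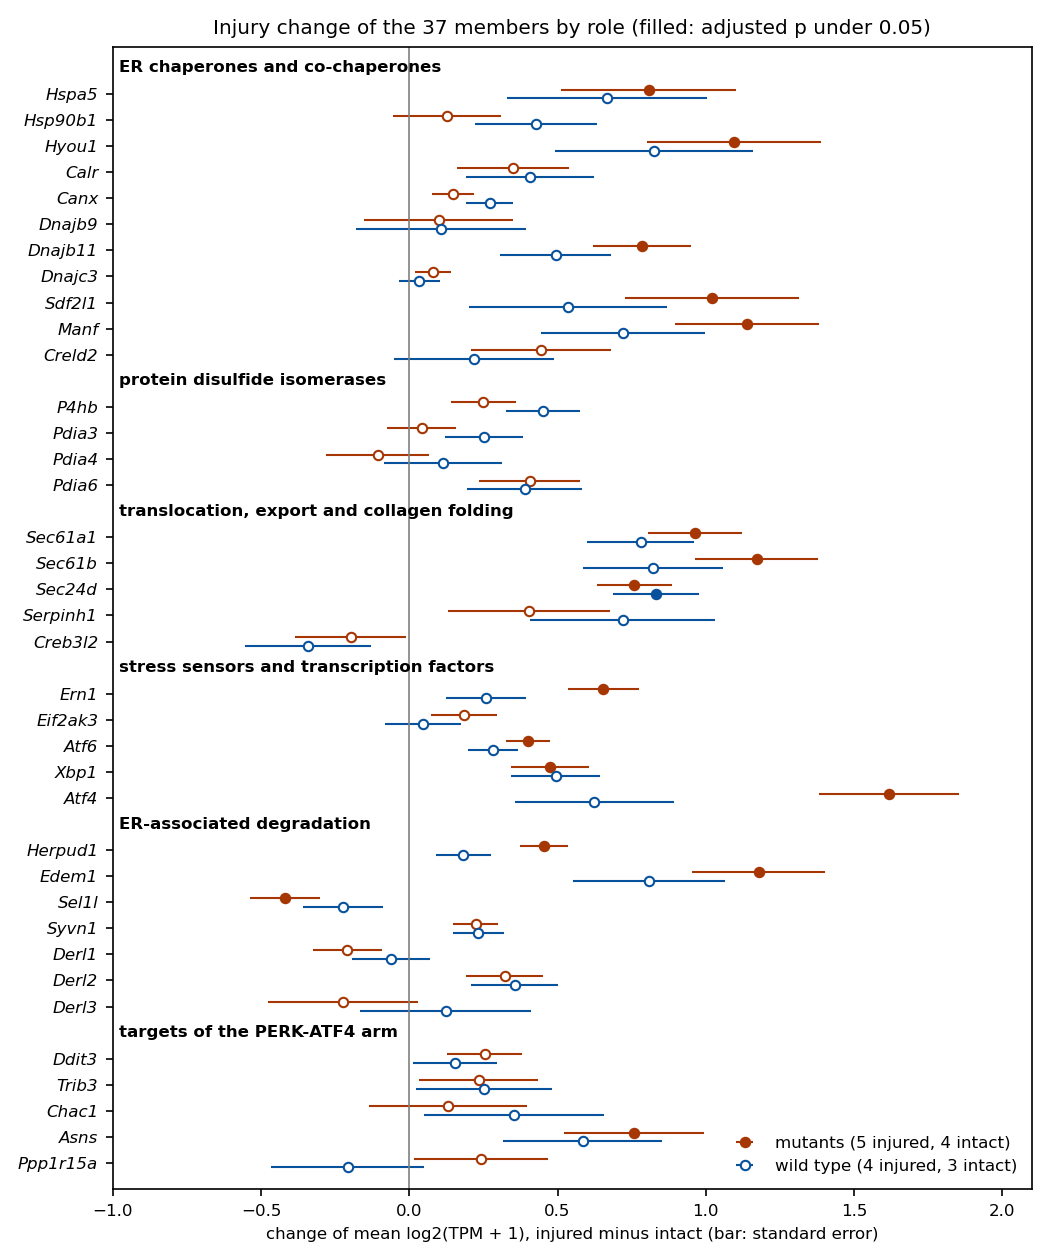
Injury change of each of the 37 members on the log2(TPM + 1) scale (horizontal axis), grouped by role, in mutants (red, 5 injured and 4 intact mice) and wild type (blue, 4 injured and 3 intact mice). Bars are standard errors and filled points have an adjusted p under 0.05: 16 members in mutants, among which Atf4 is the farthest right, and Sec24d in wild type.

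Among the ER chaperones and co-chaperones, 5 of 11 were called higher in injured mutants (Hspa5, Hyou1, Dnajb11, Sdf2l1 and Manf), beside 13.1% of all genes tested. None of the 11 was called lower, and their median change was 0.44. Hspa5 (chr2:34771970-34777547 of GRCm38) encodes BiP, the main ER chaperone, which also holds the stress sensors inactive. Its levels were 209.96, 498, 237, 186 and 186 TPM in injured and 121, 128, 158 and 152 TPM in intact mutants. In wild type they were 137, 179, 263 and 293 TPM in injured and 116, 129 and 150.2 TPM in intact mice. Every injured mutant lay above every intact mutant, with mouse 2 more than the others, whereas injured wild-type mouse 1 lay within the intact range. The change was 0.81 ± 0.30 (limma, adjusted p = 0.0357) in mutants and 0.67 ± 0.34 (adjusted p = 0.288) in wild type. The mutant call was lost without injured mutant mouse 2 (0.55, adjusted p = 0.0542 by limma) or mouse 3 (0.82, adjusted p = 0.0576), and without intact mutant mouse 1 (0.74, adjusted p = 0.0897), mouse 2 (0.77, adjusted p = 0.0850) or mouse 4 (0.85, adjusted p = 0.0583). It was also lost without the filter on low values (adjusted p = 0.0542), in the fit of only the groups compared (adjusted p = 0.0511), and with the A8-named (adjusted p = 0.0535) or the M-named (adjusted p = 0.418) mutant libraries alone.

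Hyou1, a large chaperone and exchange factor for BiP, was at 57.3, 100.05, 43.4, 39.5 and 49.9 TPM in injured and 24, 21, 29.3 and 27 TPM in intact mutants. In wild type it was at 26.7, 42.3, 66 and 64.8 TPM in injured and 26.7, 25 and 26.4 TPM in intact mice. Both genotypes had all injured values above all intact ones, although injured wild-type mouse 1 was nearly level with the highest intact mouse. The change of Hyou1 was 1.09 ± 0.29 in mutants (limma, adjusted p = 0.00814) and 0.83 ± 0.33 in wild type (adjusted p = 0.215). Manf, a secreted and ER-resident factor that binds BiP, was at 66.1, 87, 54.3, 48.9 and 48 TPM in injured and 19.1, 24.2, 35.2 and 29.7 TPM in intact mutants. It was at 30.6, 45.1, 60.9 and 53.4 TPM in injured and 24.3, 33.9 and 25.4 TPM in intact wild type, where mouse 1 of the injured group lay within the intact range. Manf rose by 1.14 ± 0.24 in mutants (limma, adjusted p = 0.00259), and 9.3% of its exon bases also lie in other annotated genes. Sdf2l1, a subunit of a BiP co-chaperone complex, was at 26, 62.7, 25.7, 31.1 and 29.1 TPM in injured and 11.3, 12.5, 21.6 and 19.6 TPM in intact mutants. Without mouse 2, which was again the highest, the 4 other injured mutants still lay above the intact ones. Sdf2l1 rose by 1.02 ± 0.29 (limma, adjusted p = 0.0121), and its lowest library rested on about 31 reads. Dnajb11, a J-domain co-chaperone of BiP, differed little among injured mutants (42.7 to 48.5 TPM) and lay at 22.9 to 32.8 TPM in intact ones. Its change was 0.78 ± 0.17 in mutants (limma, adjusted p = 0.00304) and 0.49 ± 0.19 in wild type (adjusted p = 0.212).

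The chaperones that were not called included some of the most abundant. Calr, the lectin chaperone calreticulin and the most abundant of the 11, was at 520.2, 630.5, 371, 387 and 365 TPM in injured and 321, 342, 363 and 369 TPM in intact mutants. Injured mutant mice 1 and 2 stood well above the intact range, and the change was 0.35 ± 0.19 (limma, adjusted p = 0.162), or 0.22 without mouse 2. Canx, its membrane-bound counterpart calnexin, ranged from 304 to 379.9 TPM in injured and 277 to 313 TPM in intact mutants, and from 353 to 384 TPM in injured and 276 to 324 TPM in intact wild type. Hsp90b1, the ER form of HSP90, ranged from 235 to 440.1 TPM in injured and 237 to 291 TPM in intact mutants. In Hsp90b1, 15.7% of exon bases also lie in other annotated genes, so that its reads may be shared with them. Dnajc3, an inhibitor of PERK, had the lowest ratio of highest to lowest level over the 16 libraries (93.2 to 106 TPM in injured and 82.2 to 101 TPM in intact mutants). Dnajb9, a J-domain protein that helps BiP to repress IRE1, spanned 65.1 to 143 TPM in injured and 60.8 to 104 TPM in intact mutants, and Creld2 spanned 30.5 to 57.1 TPM and 20.8 to 39.4 TPM. The groups overlapped for each of these 6 chaperones in mutants. In wild type Hsp90b1 was at 297 to 435 TPM in injured and 218 to 299.8 TPM in intact mice, Dnajc3 at 90.2 to 104 TPM and 89.8 to 94 TPM, and Dnajb9 at 77.2 to 121 TPM and 74 to 113 TPM, with overlap in all 3.

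Promoters were searched for the elements through which the response acts, and those of Hspa5 and Hsp90b1 are shown because both hold the complete ER stress response element (CCAAT, then 9 bases of any kind, then CCACG) while Hspa5 was called in mutants and Hsp90b1 was not. RefSeq windows on GRCm38.p6, from 250 bases before to 50 after a start, matched 32 of the 37 members, and only the bases before the start are printed, 5′ to 3′ on the strand of the gene, with the element in capitals on either strand. The Hspa5 bases lie at chr2:34771840-34772089, plus strand, and those of Hsp90b1 at chr10:86705445-86705694, minus strand.
Hspa5: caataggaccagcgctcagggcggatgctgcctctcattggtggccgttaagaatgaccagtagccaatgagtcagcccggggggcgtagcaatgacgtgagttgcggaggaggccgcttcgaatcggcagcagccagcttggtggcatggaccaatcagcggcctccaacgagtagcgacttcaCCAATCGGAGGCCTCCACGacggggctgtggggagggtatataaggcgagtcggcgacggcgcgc
Hsp90b1: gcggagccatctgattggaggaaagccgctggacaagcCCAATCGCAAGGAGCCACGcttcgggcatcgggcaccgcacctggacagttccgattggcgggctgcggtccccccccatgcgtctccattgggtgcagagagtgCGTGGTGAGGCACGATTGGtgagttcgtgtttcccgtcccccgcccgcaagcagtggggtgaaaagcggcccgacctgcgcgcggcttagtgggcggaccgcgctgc
The element stood once in Hspa5, from base -65 to base -47 before the start, and in 2 copies in Hsp90b1, the second on the opposite strand. It was found in 9 of the 32 members (Calr, Canx, Creld2, Derl3, Dnajc3, Hsp90b1, Hspa5, Pdia6 and Syvn1) and in 0.12% of all 32851 windows. Of these 9 members, Hspa5 alone was called for injury in mutants, and their median change was 0.22. Of the 23 matched members without it in the window 11 were called, and their median change was 0.32. Of all genes tested 30.8% were called in this comparison, and neither count was tested against that share. Hyou1, Manf, Sec61a1 and Atf6, which were called, and Derl1, which was not, had no window and are in neither count. Only this form of the element was searched. A match of letters describes the window and shows no binding.

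The protein disulfide isomerases, which form and rearrange disulfide bonds, held the most abundant member. None of the 4 was called in either genotype (limma). At an unadjusted p under 0.05 were 1 in mutants and 1 in wild type, beside 10158 and 4155 of the 24188 genes tested. Of all genes tested 30.8% were called in mutants and 0.116% in wild type. By limma's voom on implied reads none of the 4 was called in either genotype. P4hb, which is also the beta subunit of the collagen prolyl 4-hydroxylase, was at 811, 738, 819, 854 and 792 TPM in injured and 563, 613, 765 and 783 TPM in intact mutants. It was at 834, 872, 748 and 1049 TPM in injured and 612, 653 and 642 TPM in intact wild type. The wild-type groups did not overlap, whereas among mutants intact mice 3 and 4 reached the lower injured values. The change of P4hb was 0.25 ± 0.11 in mutants (limma, adjusted p = 0.146) and 0.45 ± 0.12 in wild type (adjusted p = 0.167), and in mutants it passed the threshold with median-of-ratios scaling (adjusted p = 0.0496) and with quantile normalization (adjusted p = 0.0367). Pdia3, the partner of calnexin and calreticulin, ranged from 274 to 364 TPM in injured and 251 to 329 TPM in intact mutants, and the groups overlapped. Pdia4 ranged from 119.9 to 259 TPM in injured and 158 to 180.3 TPM in intact mutants, with 4 of the 5 injured mice below every intact one and mouse 2 above all. Pdia6, which attenuates IRE1, ranged from 62.6 to 104 TPM in injured and 49.8 to 62.8 TPM in intact mutants and overlapped by injured mouse 5 alone. In wild type Pdia3 was at 283 to 403 TPM in injured and 258 to 292 TPM in intact mice, Pdia4 at 175 to 216 TPM and 165 to 179 TPM, and Pdia6 at 56.6 to 90.2 TPM and 48.4 to 63.4 TPM, and the groups overlapped in all 3.

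Of the 5 genes of translocation, export and collagen folding 3 were called higher in injured mutants, Sec61a1, Sec61b and Sec24d, beside 13.1% of all genes tested. The median change of the 5 was 0.76. Sec61a1 (chr6:88503579-88518905) and Sec61b encode subunits of the channel through which nascent chains enter the ER. In Sec61a1, 8.2% of exon bases also lie in other annotated genes. Sec61a1 was at 158, 129, 114, 114 and 117 TPM in injured and 58.2, 59.6, 69.1 and 69.3 TPM in intact mutants. In wild type it was at 75.9, 98.8, 143 and 120.4 TPM in injured and 60.3, 62.3 and 62.4 TPM in intact mice. The groups did not overlap in either genotype, and injured wild-type mouse 1 was the nearest to the intact level. The change of Sec61a1 was 0.96 ± 0.16 in mutants (limma, adjusted p = 0.000844) and 0.78 ± 0.18 in wild type (adjusted p = 0.101), where it was called without injured mouse 1 (0.94, adjusted p = 0.0141) and with sample weights (0.73, adjusted p = 0.0475). Sec61b was at 48.2, 52.5, 38.5, 46.6 and 44.6 TPM in injured and 16.9, 16.3, 24.9 and 22.4 TPM in intact mutants, and at 29.7 to 53.6 TPM in injured and 16.8 to 27.9 TPM in intact wild type. Its change was 1.17 ± 0.21 in mutants (limma, adjusted p = 0.00113) and 0.82 ± 0.24 in wild type (adjusted p = 0.136).

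Sec24d (chr3:123267455-123365641), a cargo-binding subunit of the COPII vesicles that carry procollagen out of the ER, was the member called in both genotypes. It was at 165, 130.1, 117, 110.4 and 126 TPM in injured and 74.4, 68.5, 78 and 82.2 TPM in intact mutants. Wild-type levels were 101, 118, 138 and 144 TPM in injured and 62, 75.5 and 70.8 TPM in intact mice. Injured and intact mice were clearly apart in both genotypes, and injured levels of the genotypes overlapped. Sec24d rose by 0.76 ± 0.13 in mutants (limma, adjusted p = 0.00107) and by 0.83 ± 0.15 in wild type (adjusted p = 0.0417). The wild-type call lay close to the threshold and was lost in 19 of 26 alternatives, while over the 26 the change stayed at 0.75 to 0.93 and the adjusted p reached 0.195. Among these were the fits without any 1 of the intact wild-type mice, injured wild-type mice 2, 3 or 4, intact mutants 1, 2, 3 or 4, or injured mutants 3, 4 or 5. The promoter of Sec24d is shown because it was the only matched member with the unfolded protein response element TGACGTGG, which occurred on either strand in 0.68% of all windows. The bases before the start lie at chr3:123267246-123267495, plus strand, with the element in capitals.
Sec24d: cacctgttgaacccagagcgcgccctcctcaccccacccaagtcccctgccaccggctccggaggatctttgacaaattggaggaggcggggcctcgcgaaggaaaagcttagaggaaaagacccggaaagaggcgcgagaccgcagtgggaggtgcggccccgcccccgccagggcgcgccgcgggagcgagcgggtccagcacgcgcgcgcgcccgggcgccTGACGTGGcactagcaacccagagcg
Creb3l2, a membrane-bound transcription factor that activates Sec23 and Sec24 genes in cartilage, was not called and had a negative change in both genotypes (-0.20 ± 0.19 in mutants and -0.34 ± 0.21 in wild type; limma, adjusted p = 0.428 and 0.388). Its levels were 263, 159, 284, 274 and 299 TPM in injured and 299.997, 289, 252 and 309 TPM in intact mutants, and injured mouse 2 was far below the rest. Without that mouse the mutant change was -0.036. Serpinh1, the collagen chaperone HSP47, was at 227 to 359 TPM in injured and 191 to 223 TPM in intact mutants, and at 183 to 519 TPM in injured and 159 to 251 TPM in intact wild type, and was not called.

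Of the 5 stress sensors and transcription factors 4 were called higher in injured mutants, beside 13.1% of all genes tested, and Atf4 rose by the most of all 37 members. Atf4 (chr15:80255184-80257541) encodes the transcription factor of the PERK arm. It was at 886, 459, 748, 383 and 483 TPM in injured and 182, 172, 209.8 and 169 TPM in intact mutants. In wild type it was at 221, 202, 323 and 323 TPM in injured and 176, 160.4 and 172 TPM in intact mice. Injured mice lay above intact ones in both genotypes without overlap, and every injured mutant lay above every injured wild-type mouse. The highest Atf4 levels were in injured mutants 1 and 3. Atf4 rose by 1.62 ± 0.24, or 3.07-fold on the TPM + 1 scale, in mutants (limma, adjusted p = 0.000476), and passed the threshold in all 29 alternatives. In wild type the change was 0.62 ± 0.27 (adjusted p = 0.242).

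Ern1 was at 61.8, 58.6, 53.3, 47.1 and 45.1 TPM in injured and 35.3, 30.9, 34.2 and 32.4 TPM in intact mutants, with no overlap, and at 36 to 52.3 TPM in injured and 33.1 to 39.3 TPM in intact wild type. It rose by 0.65 ± 0.12 in mutants (limma, adjusted p = 0.00183), and the wild-type change was 0.26 ± 0.14 (adjusted p = 0.341). Xbp1 was at 283, 191, 204, 193 and 179 TPM in injured and 149.96, 137, 155 and 153 TPM in intact mutants, and at 170.3, 216, 219.8 and 227 TPM in injured and 136, 137 and 169 TPM in intact wild type. Neither genotype overlapped, and the change was 0.47 ± 0.13 in mutants (limma, adjusted p = 0.0136) and 0.49 ± 0.15 in wild type (adjusted p = 0.154). Atf6 rose from 22.2 to 27.1 TPM in intact to 29.6 to 34.6 TPM in injured mutants, 0.40 ± 0.07 on the log2 scale (limma, adjusted p = 0.00500). The wild-type change of Atf6 was 0.28 ± 0.08 (adjusted p = 0.207) and was not called. Eif2ak3 was the 1 sensor not called, with 39.2 to 50.9 TPM in injured and 33 to 46.5 TPM in intact mutants, and its injured mouse 2 was the lowest of its group.

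**Figure D2:**
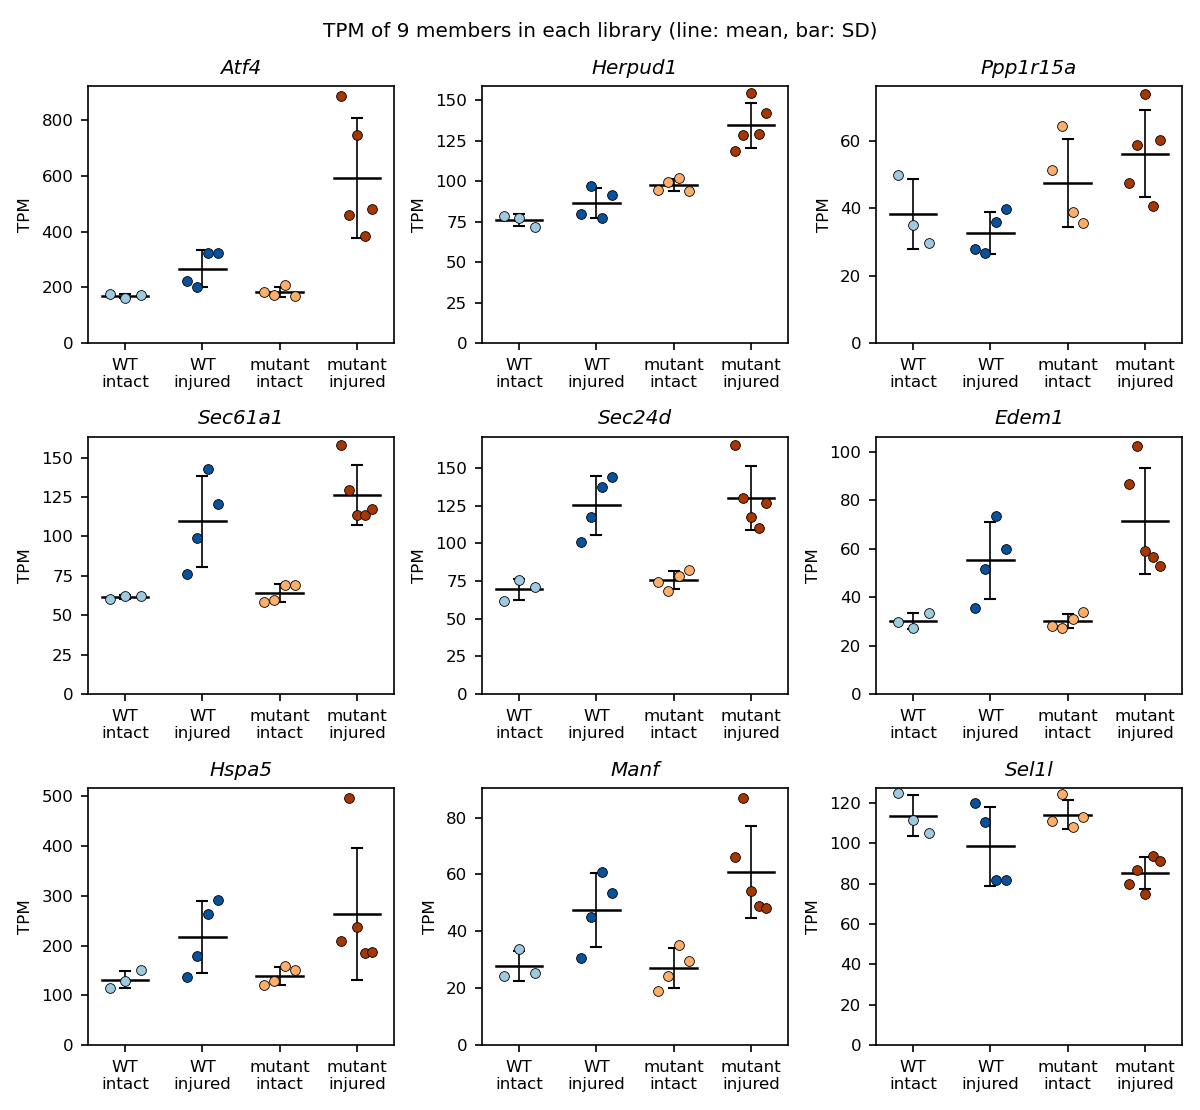
TPM (vertical axis, from 0) of 9 members in each of the 16 libraries, by group; horizontal lines are group means and bars SD. Atf4 and Herpud1 in injured mutants lie above all other mice, Sec61a1, Sec24d and Edem1 are higher in injured mice of both genotypes, and Sel1l is lower in injured mutants (74.8 to 93.8 TPM).

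The genes of ER-associated degradation, which returns misfolded proteins to the cytosol for the proteasome, did not move in 1 direction. Herpud1 and Edem1 rose in injured mutants, Sel1l fell, and 4 of 7 were not called. Of all genes tested 13.1% were called higher and 17.7% lower. Herpud1 (chr8:94386438-94395377) encodes a membrane protein that gathers the degradation complex. It was at 119, 128, 155, 129 and 142 TPM in injured and 94.5, 99.7, 102 and 94.2 TPM in intact mutants. In wild type it was at 79.9, 97.1, 77.2 and 91.7 TPM in injured and 78.7, 77.1 and 71.8 TPM in intact mice. Injured mutants were higher than all other mice, intact mutants were higher than intact wild type, and the wild-type groups overlapped. The injury change was 0.45 ± 0.08 in mutants (limma, adjusted p = 0.00252) and 0.18 ± 0.09 in wild type (adjusted p = 0.364). Edem1, which draws misfolded glycoproteins out of the folding cycle, was at 87, 102, 59.1, 56.5 and 53.1 TPM in injured and 28.1, 27.4, 31.1 and 33.9 TPM in intact mutants. It was at 35.7, 51.7, 73.4 and 60.1 TPM in injured and 29.6, 27.4 and 33.6 TPM in intact wild type, again without overlap. Edem1 rose by 1.18 ± 0.22 in mutants (limma, adjusted p = 0.00156), and its wild-type change of 0.81 ± 0.26 (adjusted p = 0.150) was called without injured mouse 1 (0.999, adjusted p = 0.0417). Sel1l, the adaptor of the ubiquitin ligase Syvn1 (HRD1), was at 79.8, 86.9, 74.8, 93.8 and 91.4 TPM in injured and 111, 124, 108 and 113 TPM in intact mutants. All injured mutants lay below all intact ones, and of the wild-type injured mice 3 and 4 were low (119.8, 111, 81.7 and 81.8 TPM) beside 125, 111 and 105 TPM in intact mice. The change of Sel1l was -0.42 ± 0.12 in mutants (limma, adjusted p = 0.0158, or 0.0526 without intact mutant mouse 2) and -0.22 ± 0.13 in wild type (adjusted p = 0.396). Its partner Syvn1 had a change of the other sign, from 57.9 to 73.2 TPM in intact to 66 to 84.6 TPM in injured mutants, and was not called. Derl1, the most abundant of the 7 and a part of the exit channel, was at 79.3 to 108 TPM in injured and 94.9 to 121 TPM in intact mutants (-0.21 ± 0.12; limma, adjusted p = 0.190), and its wild-type change was -0.06 ± 0.13 (adjusted p = 0.837). Derl2 was at 21 to 35.4 TPM in injured and 19.9 to 22.2 TPM in intact mutants, Derl3 was at 4.01 to 10.6 TPM and 5.53 to 9.99 TPM, and neither was called.

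Of the 5 targets of the PERK-ATF4 arm 1, Asns, was called higher in injured mutants, beside 13.1% of all genes tested. The median change of the 5 was 0.24, and Atf4 itself changed by 1.62. Of 16 other Atf4 targets 8 were called higher, with a median change of 0.48 over the 16. Asns, asparagine synthetase, was at 38.7, 34.3, 24.5, 14.3 and 22.8 TPM in injured and 13.2, 14.8, 14.2 and 16.7 TPM in intact mutants. Wild-type levels were 19.2, 23.2, 29.5 and 27 TPM in injured and 17.8, 16.1 and 14.2 TPM in intact mice. Injured mutants 1 and 2 were high, injured mutant 4 lay within the intact range, and the wild-type groups did not overlap. Asns rose by 0.76 ± 0.24 in mutants (limma, adjusted p = 0.0191, or 0.0526 without intact mutant mouse 1), and the wild-type change was 0.58 ± 0.27 (adjusted p = 0.263). Ppp1r15a, the regulator (GADD34) that reverses the translational block of PERK, was at 47.4, 58.8, 74, 40.6 and 60.4 TPM in injured and 51.5, 64.5, 39 and 35.8 TPM in intact mutants, and the groups overlapped. In wild type it was at 28, 26.7, 36.1 and 39.9 TPM in injured and 49.8, 35.1 and 29.8 TPM in intact mice. Its injury change was 0.24 ± 0.23 in mutants and -0.21 ± 0.26 in wild type (limma, adjusted p = 0.412 and 0.672), and leaving out single mice moved the mutant value from 0.12 to 0.40 and the wild-type value from -0.37 to -0.01. Ddit3, the death-promoting factor CHOP, was at 30.5, 39.2, 31.1, 29.7 and 24.9 TPM in injured and 22.2, 22, 29.5 and 29.8 TPM in intact mutants, and mouse 2 stood well above the rest. In Ddit3, 10.9% of exon bases lie in other annotated genes, among them a second entry of the same name. Trib3, a pseudokinase induced by Ddit3, was at 4.57 to 10.2 TPM in injured and 3.65 to 6.26 TPM in intact mutants, and Chac1, which breaks down glutathione, at 9.81 to 17.4 TPM and 7.38 to 13.6 TPM. Both were among the 3 lowest members, with Derl3.

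Binding sites of Atf4 are often written TGATGNAA, and the promoters of Asns and Herpud1 are shown because each holds this element and both genes were called. The element stood on either strand in 4 of the 32 matched members (Asns, Chac1, Herpud1 and Trib3) and in 3.97% of all windows. The bases before the Asns start lie at chr6:7693210-7693459, minus strand, and those of Herpud1 at chr8:94386179-94386428, plus strand, where the capitals are the element read on the opposite strand.
Asns: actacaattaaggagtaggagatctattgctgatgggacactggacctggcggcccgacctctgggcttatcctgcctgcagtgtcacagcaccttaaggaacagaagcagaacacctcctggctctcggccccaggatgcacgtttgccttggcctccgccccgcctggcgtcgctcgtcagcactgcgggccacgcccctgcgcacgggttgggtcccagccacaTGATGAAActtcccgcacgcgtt
Herpud1: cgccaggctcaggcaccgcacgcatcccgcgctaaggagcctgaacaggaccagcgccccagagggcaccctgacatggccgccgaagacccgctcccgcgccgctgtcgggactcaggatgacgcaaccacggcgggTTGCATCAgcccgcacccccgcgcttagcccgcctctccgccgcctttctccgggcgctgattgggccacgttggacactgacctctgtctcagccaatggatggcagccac
In Asns the element ended 16 bases before the start, and in Herpud1 it lay from base -112 to base -105. Chac1 and Trib3, with the same letters in their windows, were not called in any comparison, and Atf4, the factor itself, had none.

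**Figure D3:**
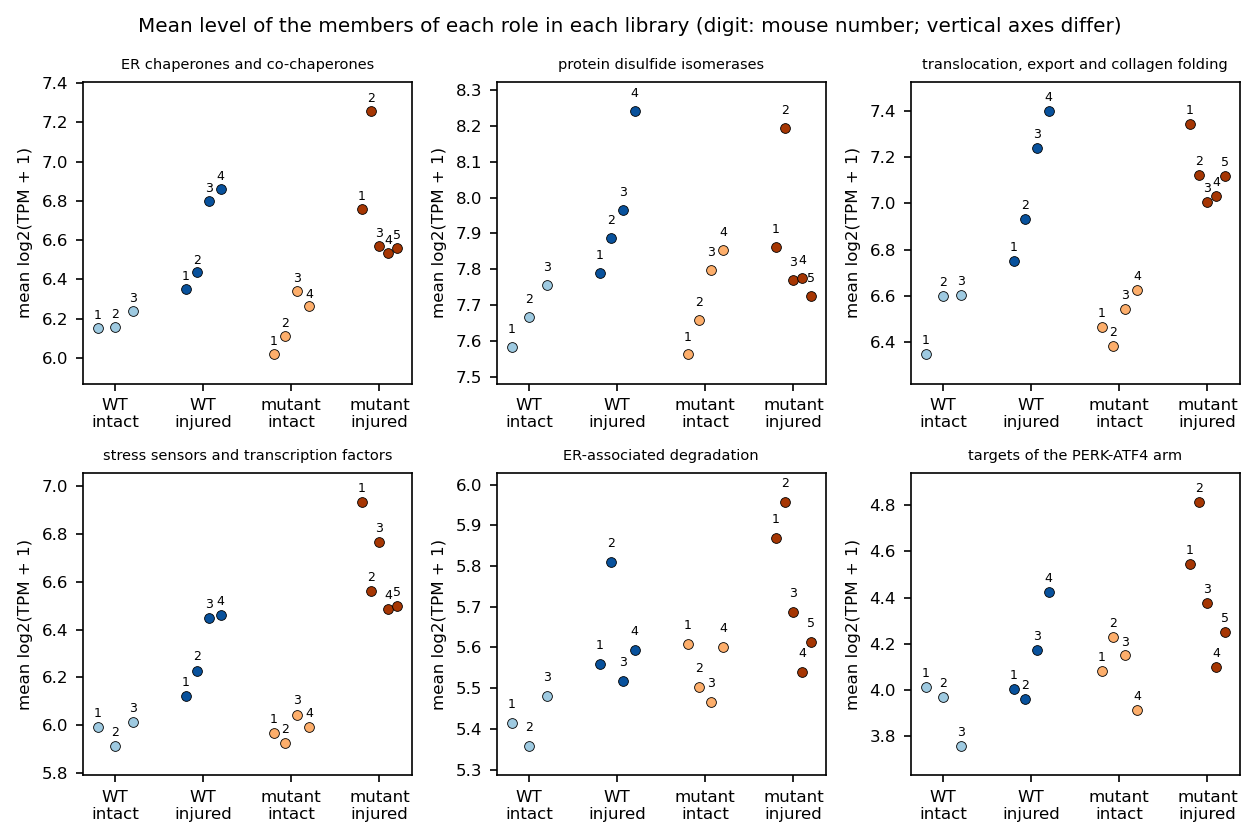
Mean log2(TPM + 1) of the members of each role (vertical axes, which differ and do not start at 0) in each library, by group, with the mouse number at each point. Injured mutant mouse 2 was highest of all mice for the chaperones (7.26), injured mutant mouse 1 for the stress sensors and factors (6.93), and the isomerases of the other 4 injured mutants (7.73 to 7.86) lay close to intact mutants (7.56 to 7.86).

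Different injured mice led in different roles. Injured mutant mouse 2 was the highest of its group for 22 of the 37 members, mouse 1 for 9, mouse 3 for 3, mouse 4 for 2 and mouse 5 for 1. Mouse 2 had the highest mean log2(TPM + 1) of its group for the chaperones (7.26, beside 6.53 to 6.76 in the other 4), the isomerases (8.20 beside 7.73 to 7.86), the degradation genes (5.96 beside 5.54 to 5.87) and the PERK-ATF4 targets (4.81 beside 4.10 to 4.54). Mouse 1 led in the stress sensors and factors, at 6.93 beside 6.49 to 6.77, and in translocation and export, at 7.34 beside 7.01 to 7.12. The summed TPM of the 37 members was 4884 to 6294 in injured and 3950 to 4404 in intact mutants. It was 4534 to 6231 in injured and 3952 to 4327 in intact wild type, so that neither pair of groups overlapped. In wild type, injured mouse 4 exceeded every intact mouse in 29 members, mouse 3 in 27, mouse 2 in 24 and mouse 1 in 17, and their macrophage sums were 2380, 3734, 376 and 223 TPM in that order. The part of macrophage RNA in these counts was not tested. Without injured mutant mouse 2 the number of members called in mutants was again 16, of which 15 were the same. That count was not compared with the share of all genes called in the same fit. The median change in that fit was 0.29 over the members and -0.06 over all genes.

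Mutant libraries carried 2 kinds of name, beginning with A8 (injured mice 1 and 2, intact mice 1 and 2) or with M (injured mice 3, 4 and 5, intact mice 3 and 4), and the labels do not say what the names mark. All wild-type names began with D, so names and genotype cannot be told apart there. Injury changes were computed within each kind of name. The signed change was higher in the A8 libraries for 31 of the 37 members, with a median of 0.60 beside 0.14 in the M libraries. For Hspa5 it was 1.37 in A8 and 0.38 in M libraries, for Hyou1 1.71 and 0.63, for Manf 1.77 and 0.62, and for Edem1 1.73 and 0.77. In the same order Atf4 had 1.84 and 1.45, Sec61a1 1.27 and 0.72, and Sec24d 1.03 and 0.55. Herpud1 (0.34 and 0.53), Atf6 (0.39 and 0.43) and Ppp1r15a (-0.12 and 0.59) were among the 6 members with a higher signed change in M. By sign Sel1l (-0.49 and -0.36) was also higher in M, although it fell more in A8. Derl1 (-0.10 and -0.25) was higher in A8, where it fell less. All 16 called members had the same sign in both. With the M mutants alone 2 members, Atf4 and Herpud1, passed the threshold (limma), beside 725 genes or 3% of all, and with the A8 mutants alone 12 members did, beside 3583 genes or 14.8%. Whether the 2 kinds of name differ was not tested.

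**Figure D4:**
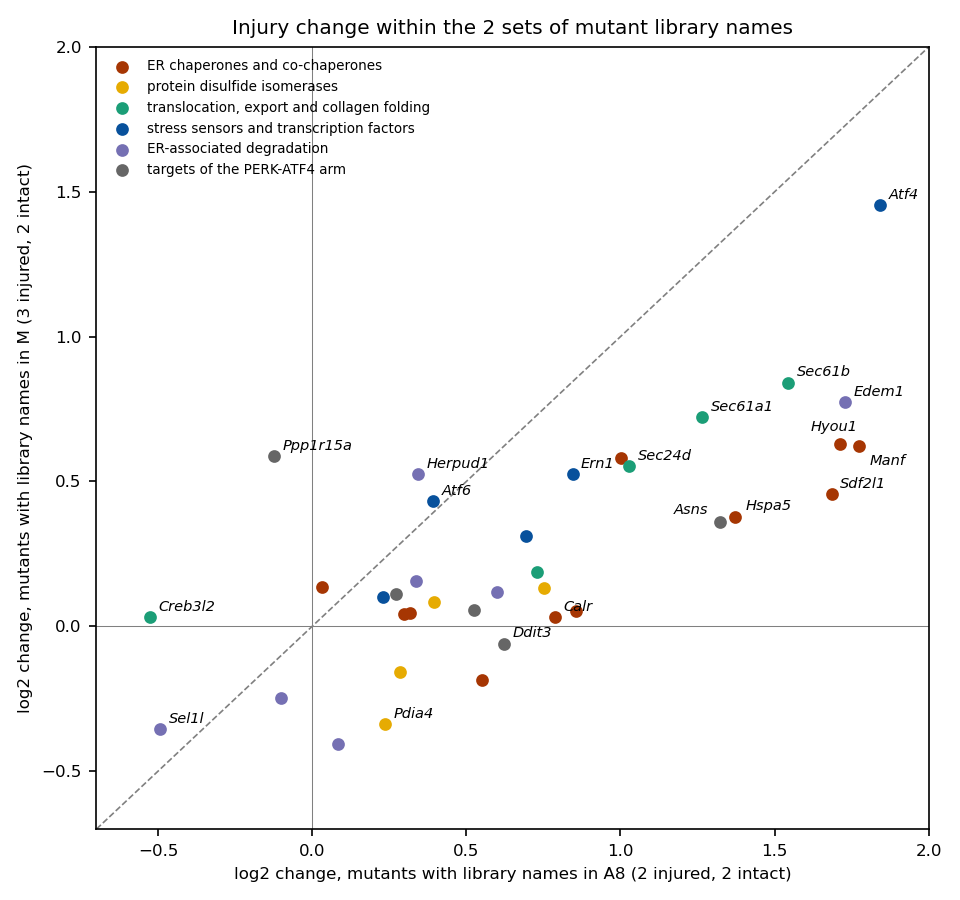
Injury change of the 37 members (log2 scale) among mutants with library names in A8 (horizontal axis, 2 injured and 2 intact mice) against mutants with names in M (vertical axis, 3 injured and 2 intact mice), coloured by role. The dashed line marks equal change. Below it lie 31 members and above it 6, among them Herpud1, Atf6 and Ppp1r15a.

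Between genotypes in injured discs, 2 of the 37 members were called (limma), Atf4 and Herpud1, both higher in mutants, beside 0.918% of all genes. The comparison uses injured mice that also enter the injury comparisons. For Atf4, the 5 injured mutants lay at 383 to 886 TPM and the 4 injured wild-type mice at 202 to 323 TPM, a difference of 1.10 ± 0.24 (limma, adjusted p = 0.0372). It was 0.98 with the M mutants alone (adjusted p = 0.0710) and 1.28 with the A8 mutants alone (adjusted p = 0.157), and 18 of 29 alternatives took the adjusted p over the threshold, up to 0.231, while the difference stayed between 0.94 and 1.28. Among the mice whose omission did so were injured mutants 1, 3 and 5, injured wild type 1, 2 and 4, intact mutants 1, 2 and 4, and each intact wild-type mouse. For Herpud1, the injured mutants lay at 119 to 155 TPM and the injured wild-type mice at 77.2 to 97.1 TPM, a difference of 0.63 ± 0.08 (limma, adjusted p = 0.0109). The Herpud1 difference was 0.71 with the M mutants alone (adjusted p = 0.0168) and 0.52 with the A8 mutants alone (adjusted p = 0.166). Wild-type names all begin with D, so neither fit holds the name constant. Without injured wild-type mouse 1 the difference was 0.60 (adjusted p = 0.0518), and in the fit of only the groups compared 0.63 (adjusted p = 0.169). Without injured wild-type mouse 1 no member was called. With the replicate number as a block none was called either (adjusted p = 0.0846 for Atf4 and 0.0686 for Herpud1). Ppp1r15a was higher in all 5 injured mutants (40.6 to 74 TPM) than in the 4 injured wild-type mice (26.7 to 39.9 TPM), but missed the threshold (0.76 ± 0.23; limma, adjusted p = 0.0822), and was called without injured mutant mouse 4 (0.86, adjusted p = 0.0488) or injured wild-type mouse 3 (0.81, adjusted p = 0.0459). Ern1 was the other member with an unadjusted p under 0.05 (0.29 ± 0.12; limma, adjusted p = 0.199). No chaperone or isomerase had an unadjusted p under 0.05 in this comparison, beside 4912 of the 24188 genes tested. Their median differences were 0.22 and -0.10, beside -0.09 over all genes tested.

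In intact discs no member was called between genotypes (limma, and 0 by voom), beside 0.0165% of all genes. Beside 915 of the 24188 genes tested, 1 of the 37 members had an unadjusted p under 0.05. That member was Herpud1, with 94.5, 99.7, 102 and 94.2 TPM in intact mutants and 78.7, 77.1 and 71.8 TPM in intact wild type. These groups did not overlap, and the difference was 0.36 ± 0.09 (limma, unadjusted p = 0.00306, adjusted p = 1), 0.35 with the A8 and 0.37 with the M mutants. The injured and the intact mice are separate animals, and Herpud1 was higher in mutants in both. Herpud1 lies on chromosome 8, Atf4 on chromosome 15 and Ppp1r15a on chromosome 7. The part of location in the genotype differences was not tested. Atf4 overlapped between intact mutants (169 to 209.8 TPM) and intact wild type (160.4 to 176 TPM), with a difference of 0.11 ± 0.27.

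The injury effects of the genotypes were compared by the interaction, in which no member was called (limma, and 0 by voom), beside 0% of all genes. Beside 1979 of the 24188 genes tested, 2 of the 37 members had an unadjusted p under 0.05. These were Atf4, whose injury change was larger in mutants by 0.99 ± 0.36 (limma, adjusted p = 0.503), and Ern1, by 0.40 ± 0.18 (adjusted p = 0.607). The difference for Atf4 was 0.83 with the M and 1.22 with the A8 mutants alone. The median interaction was 0.05 over the members and -0.08 over all genes tested. For no member did the difference between the injury effects pass the threshold.

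Other genes of the same pathways were examined to place the members. Of 75 listed genes 74 were tested, and in injured mutants 31 were called higher and 5 lower (limma), 48.6% of those tested beside 30.8% of all genes. In wild type 0 were called (limma, and 0 by voom on implied reads). At an unadjusted p under 0.05 were 27 of the 74, beside 4155 of the 24188 genes tested. Between genotypes in injured discs 0 were called (limma). At an unadjusted p under 0.05 were 10 of the 74, beside 4912 of the 24188 genes tested. By voom 1 was called higher and 2 lower, beside 557 genes or 2.31% of all. Among 18 other import and export genes 10 rose in mutants and none fell, led by Sec23b (0.72 ± 0.11; limma, adjusted p = 0.000831), a COPII coat subunit, and by Ssr3 (0.63 ± 0.12), a subunit beside the Sec61 channel. Among 14 other folding genes 5 rose and 1 fell, with Fkbp11, a prolyl isomerase, at 1.14 ± 0.41, Ero1b (listed as Ero1lb), an oxidase of the isomerases, at 0.94 ± 0.30, and Sil1, an exchange factor of BiP, at -0.86 ± 0.13. Among 11 other degradation genes 3 rose and 2 fell, with the ubiquitin-conjugating enzyme Ube2j1 at 0.65 ± 0.15 and the lectin Os9, which works with Sel1l, at -0.54 ± 0.09. Among 15 other regulators 5 rose and 2 fell, with the transcription factors Cebpb at 2.32 ± 0.53 and Cebpg, a partner of Atf4, at 0.76 ± 0.12. Among 16 other Atf4 targets 8 rose and none fell, with the mitochondrial folate enzyme Mthfd2 at 1.63 ± 0.26, the cystine transporter Slc7a11 at 1.58 ± 0.62 and the serine enzyme Psat1 at 1.13 ± 0.41.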

How the data were processed

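A single table of TPM values, deposited by the authors, holds the 16 mice as columns beside Ensembl identifiers and gene names. Per the labels' protocols, Trizol extraction was followed by depletion of ribosomal RNA and an NEBNext Ultra II library kit, although the molecule field names polyA RNA. The submitters' processing notes name bcl2fastq 2.20 and GRCm38, whereas aligner, read counter, strand setting and annotation are not given in the sources used here. Of the identifiers, 99.5% were found in GENCODE M21, whose coordinates and exon lengths were used. Depth was taken from implied reads (values divided by the worth of 1 read), which for 94.0% to 94.9% of low values lay within 0.05 of a whole number, and no interval was built on them.

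Groups came from the titles. limma 3.58.1 in R 4.3.3 (eBayes with a mean-variance trend) was run on log2(TPM + 1), a scale that understates changes of low genes, over genes reaching 1 TPM in 3 libraries or more, in 1 fit of all 16 libraries. The script was tested on simulated data. Errors of changes are SE between mice from the linear fit, taken before the eBayes step. A change divided by its SE therefore does not give the printed p. The members, the lists and the rule for naming were chosen with earlier results of these data known. SE and p are printed for members called in at least 1 comparison and for the most abundant member of each role, and of other pathway genes at most 3 per list are named. Protein sequences were not used here. Alternatives were a pseudocount of 0.1, no filter, a mean of at least 5 TPM, median-of-ratios scaling, quantile normalization, no trend, sample weights, a fit of the compared groups alone, blocking on replicate number, the library names, leaving out each mouse and, chosen after seeing the data, voom on implied reads.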

Additional observations from a re-analysis of the deposited data

Results flagged for a closer look

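Among 111 pairs of a member and a group of 4 or 5 mice, 6 had 1 library whose gap to the nearest other mouse was large for the range of the group (Dixon's rule on log2 values), and chance alone marks about 1 pair in 20. Of these 6, 4 were in injured mutant mouse 2. Hspa5, the chaperone BiP, was at 498 TPM there, beside 186 to 237 TPM in the other injured mutants. Sdf2l1, its co-chaperone, was at 62.7 TPM, beside 25.7 to 31.1 TPM. Creb3l2, a transcription factor of the secretory pathway, was low at 159 TPM, beside 263 to 299 TPM. Eif2ak3, the sensor PERK, was low at 39.2 TPM, beside 47.9 to 50.9 TPM. The same library had the highest macrophage marker sum of the 16 (7406 TPM), whose part in these values was not tested. In injured wild-type mouse 4, Canx, the lectin chaperone calnexin, was at 384 TPM beside 353 to 357 TPM, and Pdia4, a disulfide isomerase, was at 216 TPM beside 175 to 179 TPM in the other injured wild-type mice.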

How the results depend on the processing

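Counts of called members kept within 1.5 times for injury in mutants except with the M-named mutants alone (2, beside 16). Leaving out single mice gave 14 to 18. Injury in wild type (1) gave 0 without a filter, with median-of-ratios scaling, without the trend, with only the groups compared, with voom and with the replicate block, 2 with sample weights, and 0 to 3 without single mice. Genotype in injured discs (2) gave 1 without a filter, 1 with quantile normalization, 1 with the M-named and 0 with the A8-named mutants alone, 0 with only the groups compared, 0 with the replicate block, and 0 to 3 without single mice. Genotype in intact discs and the interaction gave 0 in every alternative run, and the fit of only the groups compared does not exist for the interaction, which uses all groups. With the replicate block injury in mutants gave 16. Same-numbered mice are different animals, their deviations correlated at -0.217 to 0.078, and the block changed no other count of members. Over 1356 values of 49 single-gene results, 1275 kept direction and side of the threshold, 69 lost the call, 7 gained it and 5 changed sign. The 5, none called, were Creb3l2 in mutants (0.033 with the M-named alone), Ppp1r15a in mutants (-0.12 with the A8-named alone) and Derl1 in wild type (0.020 with sample weights, and -0.13 to 0.020 over all alternatives, with 0.018 without injured mouse 3 and 0.013 without intact mouse 3). Median-of-ratios scaling called 20 members in mutants. The share of all genes called also moved between alternatives, for example from 30.8% in mutants to 3% with the M-named alone. These counts of members were not compared with the share of all genes in each alternative, and a moved count is not shown to be particular to the members. No scaling moved the median of all genes by more than 0.0973. The cause of these differences was not tested. With 3 to 5 mice per group, a member that missed the threshold is not shown to be unchanged.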
